A study of Mus musculus with 2 samples.

Results

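Cd163l1, 5830411N06Rik, Cd5 and Cd6 encode the T cell members of the scavenger receptor cysteine-rich family that were followed here, and their messenger RNA in CD8+CD122+ splenocytes sorted from C57BL/6 mice was set against that in CD8+CD122- splenocytes. A probe was taken as a member if either scanner file named it by one of these 4 gene symbols or an older alias, which gave 6 of the 41174 probes that are not controls. The genes were chosen by their family and with their log2 ratios in this same comparison known, so the ratios are a description and carry no test. CD122 is a chain that the receptors of the cytokines IL-2 and IL-15 share, and the series calls the CD8+CD122+ cells regulatory. Each of the 2 Agilent arrays took amplified RNA of both populations, in different dyes. On array 1 the CD8+CD122+ sample carried Cy5 and the CD8+CD122- sample Cy3, and array 2, a second trial, had the dyes exchanged. The age, sex and number of the mice, and whether the second trial used new mice, are not stated in the labels, so the p-values printed here measure only the spread between these arrays, which may be technical. The number of arrays limits the precision, and fewer cells of a type and less RNA per cell cannot be told apart in sorted bulk samples.

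Proteins of this family carry repeats of a domain held together by disulfide bonds between cysteines, the scavenger receptor cysteine-rich domain. CD5 and CD6 are close relatives on the surface of T cells. CD5 dampens signals of the T cell receptor and its surface level is known to follow the strength of those signals, whereas CD6 binds the adhesion molecule ALCAM on other cells. The products of Cd163l1 and 5830411N06Rik, also called SCART1 and SCART2, resemble the WC1 co-receptors of cattle gamma delta T cells and are known in mice mainly from gamma delta T cells.

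All 4 genes had log2 ratios of CD8+CD122+ over CD8+CD122- above 0 on both arrays, but their sizes fell into 2 ranges. Cd163l1 and 5830411N06Rik passed 2-fold on each array, and Cd5 and Cd6 stayed under it. Of all 21960 genes tested, 68 (0.31%) passed 2-fold upwards on both arrays and 23 (0.105%) downwards, while 29.2% lay above 0 on both and 24.1% below 0 on both. By probe, 78 of the 30794 kept (0.253%) passed 2-fold upwards and 25 (0.0812%) downwards. These shares are given for scale, since the same ratios were known when the genes were chosen. Il2rb encodes CD122 itself, and its log2 ratios were 2.60 on array 1 and 2.34 on array 2 (5.56-fold on average).

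Which gene some of these probes report differed between the scanner files. The files gave the same name to 2 of the 6 probes, A_51_P167263 for Cd5 and A_51_P313320 for Cd6. A further 3 probes bore a member's name in 1 file only, and 1 probe bore the names of different members. Probe A_52_P157535 was called 5830411N06Rik in the file of array 1, with the RefSeq accession of that gene, and E430002D04Rik, an alias of Cd163l1, in the file of array 2. It was counted as 5830411N06Rik here, by its accession. Probe A_51_P171382 was called E430002D04Rik in the file of array 2 and only by its cDNA accession AK088010 in the file of array 1, where a RefSeq accession of Cd163l1 is listed beside it. Probe A_51_P381139 was called 5830411N06Rik in the file of array 1 and by the name of another cDNA clone in that of array 2. By the names in the file of array 1 alone Cd163l1 would have no probe, and by those of array 2 alone 5830411N06Rik would have none. Among 14509 probes that both files tie to a RefSeq gene, 336 (2.32%) were tied to different genes.

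Cd163l1 was represented by A_51_P171382. The deposited processed signal, a linear intensity after background subtraction and dye normalisation by the scanner software, was 23350 in CD8+CD122+ cells against 519.6 in CD8+CD122- cells on array 1. On array 2 it was 24738 in CD8+CD122+ cells against 525 in CD8+CD122- cells. Both populations lay well above background on both arrays by the scanner software's flag. The raw CD8+CD122- intensities were dim, at 108 over a local background of 60 on array 1 and 131 over 70 on array 2. No spot was saturated, and the ranges of the populations did not overlap. How many of all probes separated in this way was not counted, so separation of 2 signals from 2 is a description only, here and below. After normexp background correction with an offset of 50 and loess, the log2 ratio was 4.03 on array 1 and 4.50 on array 2, with a mean of 4.26 ± 0.34 (SD, n = 2 arrays, here and below), or 19.2-fold. The offset pulls ratios of dim signals towards 0, and the deposited processed signals gave 46.0-fold (log2 ratio 5.52 ± 0.05). The scanner software's own error of the log2 ratio was 0.45 on array 1 and 0.46 on array 2. In the order of mean log2 ratios Cd163l1 stood at rank 3 of 21960 genes.

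5830411N06Rik was represented by 2 probes that gave unlike values. On A_51_P381139 the processed signal was 12017 in CD8+CD122+ cells against 1005 in CD8+CD122- cells on array 1, and 6597 against 659 on array 2 in the same order. All 4 signals lay well above background by the flag, and the lowest of CD8+CD122+ cells was above the highest of CD8+CD122- cells. The raw CD8+CD122- intensities were again dim, at 136 over a local background of 64 on array 1 and 145 over 71 on array 2. The log2 ratio was 2.76 on array 1 and 2.49 on array 2 (mean 2.63 ± 0.19, 6.17-fold), which put the gene at rank 14 of 21960. From the processed signals it was 10.9-fold (log2 ratio 3.45 ± 0.18). On A_52_P157535 the processed signal was 103 in CD8+CD122+ cells against 114 in CD8+CD122- cells on array 1, and 98.5 in CD8+CD122+ cells against 101 in CD8+CD122- cells on array 2. This probe was not well above background in either population on either array, so no fold is given for it and it was not among the probes tested. It is the probe whose gene name differed between the files. How far A_51_P171382 and A_51_P381139 cross-hybridise with each other's related transcript was not tested, since their sequences were not used here.

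Cd5 showed a smaller difference on its 1 probe. The processed signal was 40825 in CD8+CD122+ cells against 31389.5 in CD8+CD122- cells on array 1, and 51223 in CD8+CD122+ cells against 31174 in CD8+CD122- cells on array 2. Both CD8+CD122+ signals lay above both CD8+CD122- signals. The log2 ratio was 0.36 on array 1 and 0.70 on array 2, with a mean of 0.53 ± 0.23 or 1.44-fold. On each array it exceeded the scanner software's error of the ratio, 0.17 on both. It stood at rank 381 of 21960 genes.

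Cd6 was read by 2 probes, and 1 of them showed a difference on array 2 only. On A_51_P313320 the processed signal was 101706 in CD8+CD122+ cells against 93112 in CD8+CD122- cells on array 1, and 176857 in CD8+CD122+ cells against 108213 in CD8+CD122- cells on array 2. The ranges of the populations overlapped, because the CD8+CD122- signal of array 2 exceeded the CD8+CD122+ signal of array 1. The log2 ratio was 0.13 on array 1, within the scanner software's error of 0.16, and 0.72 on array 2 (mean 0.42 ± 0.42, 1.34-fold). The SD equals the mean to 2 decimals, so the size of this difference was not settled by 2 arrays. On A_52_P294977 the processed signal was 2039 in CD8+CD122+ cells against 1996 in CD8+CD122- cells on array 1, and 2444 in CD8+CD122+ cells against 2320.1 in CD8+CD122- cells on array 2. Its log2 ratios of 0.01 and 0.04 (mean 0.03 ± 0.02) lay near 0 and inside the scanner software's errors of 0.17 and 0.19. In the coordinates of array 2's file this probe spans 1257 bases, against 60 for A_51_P313320 and 19 for the Cd5 probe A_51_P167263. Whether the span bears on the ratios was not tested. Because Cd6 was taken at its brightest probe, its mean over genes uses A_51_P313320.

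**Figure D1:**
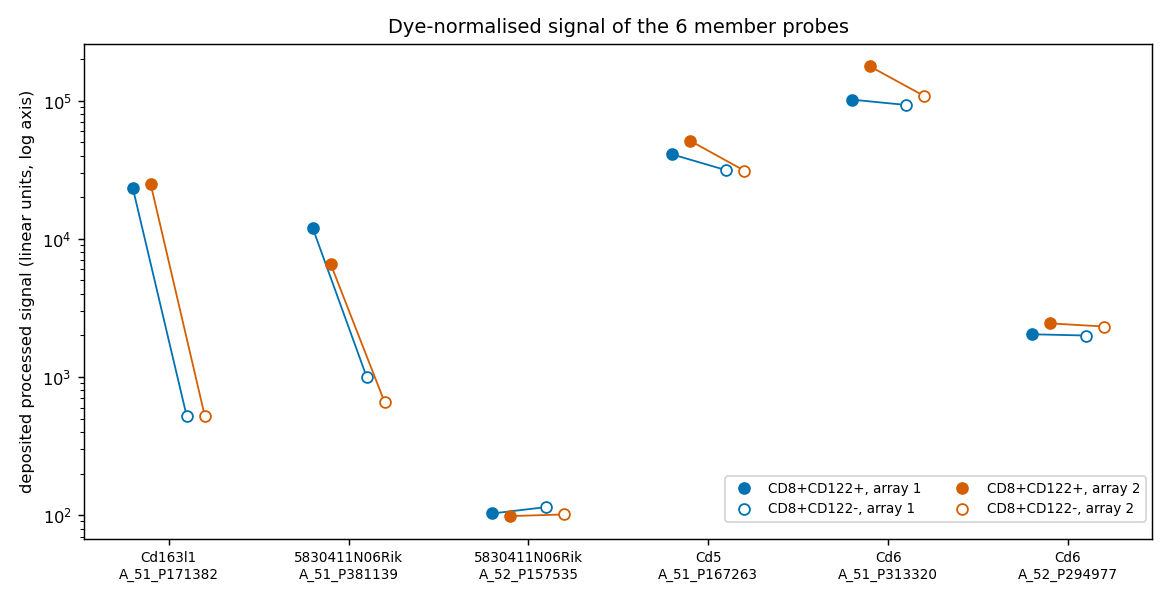
Deposited processed signal (linear units on a log axis) of the 6 member probes, with CD8+CD122+ as filled and CD8+CD122- as open points, joined within each array. The lines fall steeply for Cd163l1 (23350 against 519.6 on array 1) and for 5830411N06Rik on A_51_P381139, less for Cd5 and Cd6 on A_51_P313320, and hardly for the other probes, and levels of different probes are not comparable.

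The arrays differed in how they placed the members. Array 2 gave the larger log2 ratio for Cd163l1, Cd5 and Cd6, and array 1 for 5830411N06Rik. The SD between arrays was 0.34 for Cd163l1, 0.19 for 5830411N06Rik, 0.23 for Cd5 and 0.42 for Cd6, against a median of 0.0822 over all genes tested, most of which have ratios near 0. The genes whose pair of log2 ratios lay closest to that of Cd163l1, by Euclidean distance over the 2 arrays, were the cysteine protease inhibitor gene Ctla2a (distance 0.21), the chemokine gene Ccl5 (0.23), the Ly49 receptor gene Klra16 (0.53), Ctla2b (0.62) and Klra7 (0.64). Ctla2a had ratios of 4.22 and 4.41 and Ccl5 of 4.13 and 4.29. Closest to 5830411N06Rik were Il2rb (0.22), the surface antigen gene Ly6c1 (0.27), the granzyme gene Gzmm (0.28), the scaffold gene Ahnak (0.52) and the adhesion receptor gene Cd44 (0.56). Likeness over 2 arrays says only that the ratios are of like size.

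**Figure D2:**
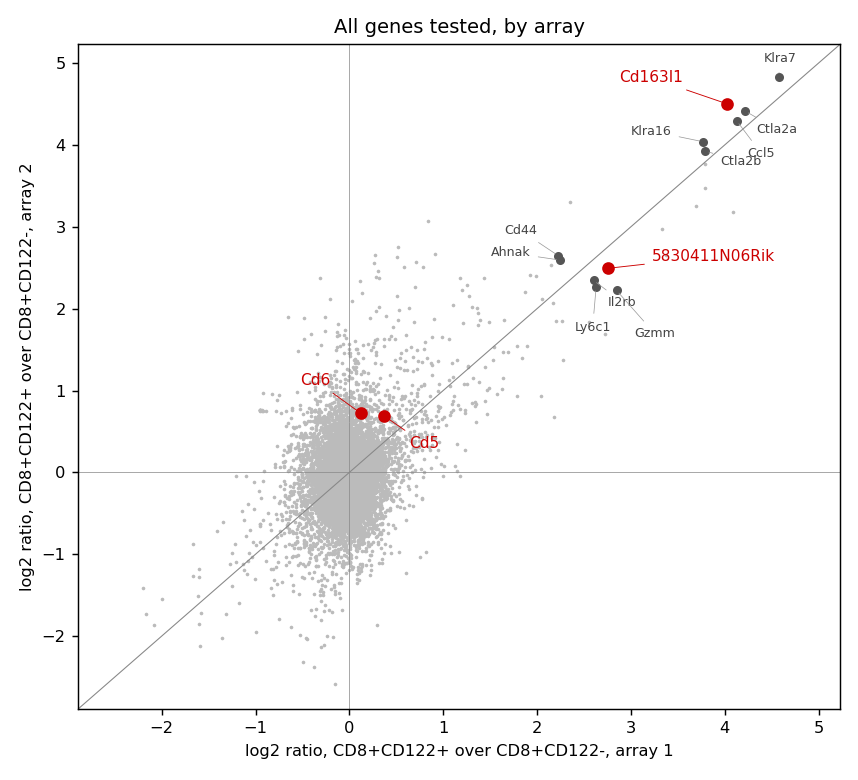
Log2 ratio of CD8+CD122+ over CD8+CD122- on array 1 (x axis) and array 2 (y axis) for the 21960 genes tested (grey), with the 4 members in red and the genes of most like ratios in dark grey. Cd163l1 (4.03 and 4.50) and 5830411N06Rik (2.76 and 2.49) lie apart from the cloud near the line of equal ratios, and Cd5 (0.36 and 0.70) and Cd6 (0.13 and 0.72) lie within it.

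The members lie in 2 pairs of nearby genes. By RefSeq's genes of GRCm38.p6, Cd163l1 and 5830411N06Rik lie close together on chromosome 7 among olfactory receptor genes. In the order of gene starts the olfactory receptor gene Olfr524 stands between them, and it lies inside the annotated span of Cd163l1. Cd5 and Cd6 are adjacent protein-coding genes on chromosome 19. The file of array 2 gives probe positions without naming a genome build, so only distances within it are used. There A_51_P171382 of Cd163l1 starts 66518 bases before A_52_P157535, and this probe starts 2989 bases before A_51_P381139 on the same strand, with no other probe between them. A_52_P157535 thus lies nearer to the other 5830411N06Rik probe than to that of Cd163l1.

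The genes next to Cd163l1 and 5830411N06Rik had ratios near 0. The olfactory receptor genes Olfr522, Olfr523 and Olfr524 had mean log2 ratios of 0.07 ± 0.05, 0.06 ± 0.02 and -0.02 ± 0.01, and no probe was matched to Olfr525 or Olfr527. Of 14 probes kept from 100000 bases before the pair to 100000 bases after it, 2 were 2-fold apart on both arrays, and these are the member probes A_51_P171382 and A_51_P381139. Beside Cd5, the pepsinogen gene Pga5 had -0.03 ± 0.06 and the endosomal sorting gene Vps37c 0.04 ± 0.02. Beyond Cd6, Tmem132a had -0.03 ± 0.06, and Slc15a3, a transporter gene, was too dim to be tested.

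Between Vps37c and Slc15a3 the log2 ratios of all 6 probes were above 0 on both arrays. The share over all probes kept, 27.8%, is given for scale and makes no test. Of the 6, 3 are member probes chosen with their ratios known, and A_52_P294977 among them had only 0.01 and 0.04. The 3 of the 6 that are no member probes were looked at after their values were seen. A_52_P230488, filed as TC1549319 on array 2 and starting 696 bases before the Cd5 probe on the same strand, had log2 ratios of 0.23 and 0.38. A_52_P478935, filed as NAP052751-1 and starting 1014 bases beyond the Cd5 probe, had 0.08 and 0.29. The probe of the long noncoding RNA gene A430093F15Rik, which lies between Cd5 and Cd6, had 0.27 and 0.37. The files do not say whether TC1549319 and NAP052751-1 belong to transcripts of Cd5.

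**Figure D3:**
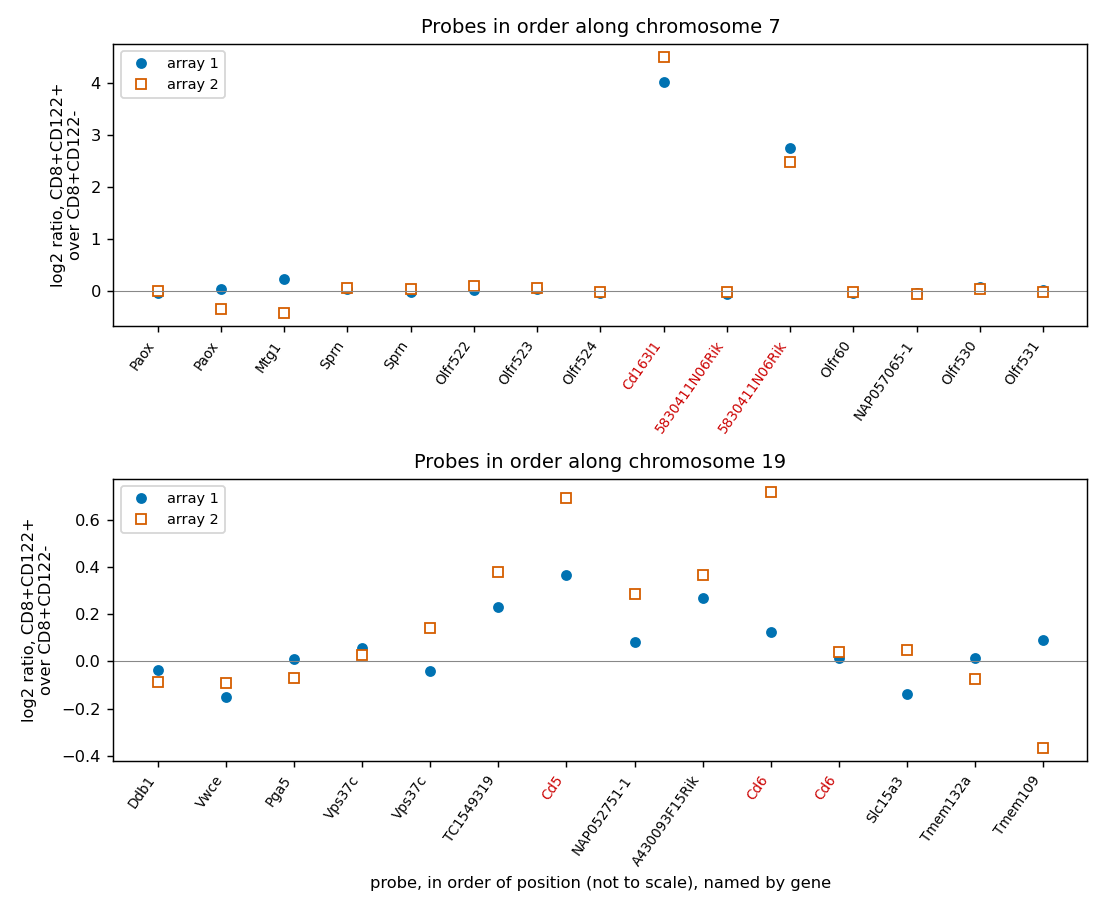
Log2 ratio of CD8+CD122+ over CD8+CD122- on array 1 (filled circles) and array 2 (open squares) for each probe in order along chromosome 7 (top) and chromosome 19 (bottom), not to scale, with members in red. Cd163l1 and 1 probe of 5830411N06Rik stand above neighbours near 0, while around Cd5 and Cd6 the ratios stay under 0.8.

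Promoter sequences are shown for the nearby genes with the highest ratios, with Cd5 as a member of smaller ratio beside them. They are RefSeq windows of the assembly GRCm38.p6 from 250 bases before to 50 after a transcript's start, written 5′ to 3′ on the strand of the gene. They lie at chr7:140218017-140218316 (plus strand) for Cd163l1, chr7:140247051-140247350 (plus strand, the first of 3 entries) for 5830411N06Rik and chr19:10738925-10739224 (minus strand) for Cd5. Capitals mark the letters AGGAAG of the ETS family of transcription factors, searched on both strands.
Cd163l1: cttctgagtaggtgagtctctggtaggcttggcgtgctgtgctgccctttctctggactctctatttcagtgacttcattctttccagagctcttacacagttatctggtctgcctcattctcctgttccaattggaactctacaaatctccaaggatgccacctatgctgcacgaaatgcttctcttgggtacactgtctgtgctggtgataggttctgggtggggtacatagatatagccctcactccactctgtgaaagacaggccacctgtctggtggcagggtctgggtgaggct
5830411N06Rik: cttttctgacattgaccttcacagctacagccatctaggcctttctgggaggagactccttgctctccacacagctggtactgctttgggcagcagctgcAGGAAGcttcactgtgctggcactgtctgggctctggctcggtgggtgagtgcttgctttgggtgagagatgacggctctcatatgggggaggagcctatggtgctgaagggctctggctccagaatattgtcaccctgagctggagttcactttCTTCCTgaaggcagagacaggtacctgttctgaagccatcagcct
Cd5: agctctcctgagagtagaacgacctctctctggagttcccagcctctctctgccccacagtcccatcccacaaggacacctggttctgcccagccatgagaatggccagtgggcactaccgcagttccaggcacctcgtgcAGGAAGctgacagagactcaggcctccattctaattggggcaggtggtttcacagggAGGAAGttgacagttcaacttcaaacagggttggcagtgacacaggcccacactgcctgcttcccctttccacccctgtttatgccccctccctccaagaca
Also searched on both strands were GGTGTG, the core of the T-box motif, and TGTGGT, a Runx motif, factors of effector and memory CD8 T cells. The windows of 5830411N06Rik and Cd5 held 2 matches to AGGAAG each, and that of Cd163l1 held 0. GGTGTG and TGTGGT had 0 matches in the 3 windows. Among 32851 promoter windows of the same length, 35.4% held AGGAAG, 19% GGTGTG and 16.8% TGTGGT. A match is a run of letters and not a site shown to be bound, and a window without one says only that the letters are not in it.

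Other genes of the family and of its pathway were read from 9 lists with 95 genes, of which 77 were tested. limma called 0 of the 77 at an adjusted p under 0.05, as it called 0 of all 21960 genes (0% higher and 0% lower). At an unadjusted p under 0.05 limma found 12 of the 77, and 1400 of all 21960 genes. The lists were chosen with earlier results of these data known, so these counts make no test of the lists. With an offset of 16 in place of 50, limma called 6 of all genes, and with an intensity trend or the robust version 0. By size, 0 of the 77 were 2-fold apart in the same direction on both arrays. The median log2 ratio over all genes tested was 0.0070.

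The family's members known from other tissues or cell types had a list median of 0.05, with 17 of 19 tested. On both arrays 10 were above 0, against 29.2% of all genes tested, and 1 was below, against 24.1%. Highest was Prss12, which encodes the secreted protease neurotrypsin, at 1.35 on array 1 and 0.84 on array 2 (2.14-fold on average, SD 0.36 on the log2 scale, limma adjusted p 0.582). It passed 2-fold on array 1 but not on array 2. Next was the macrophage receptor gene Marco at 0.43 and -0.15 (mean 0.14 ± 0.41), of opposite sign on the arrays. The lowest were Dmbt1, a secreted mucosal protein gene, at -0.39 ± 0.22 (limma adjusted p 0.762), and the protease gene Corin at -0.01 ± 0.05. Cd163, the haemoglobin scavenger receptor of macrophages, and Cd5l, a secreted macrophage protein gene, had 0.07 ± 0.11 and 0.07 ± 0.04.

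Of the ligand genes, Alcam, whose product binds CD6, had a log2 ratio of 0.08 ± 0.05. Cdcp1, whose product is a further CD6 ligand, had -0.58 on array 1 and 0.30 on array 2, so its mean of -0.14 ± 0.62 has no settled sign. Cd72, a B cell receptor gene whose product has been proposed to bind CD5, had -0.36 ± 0.11. None of these 3 passed limma or the rule of size.

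Genes of proteins that act with CD5 and CD6 inside the cell had a median of -0.02 over 23 members. On both arrays 5 were above 0, against 29.2% of all genes tested, and 7 below, against 24.1%, while 11 had opposite signs. Highest were Ubash3b, a phosphatase that restrains T cell receptor signals, at 0.48 ± 0.03 (limma adjusted p 0.546), and the adaptor gene Dok2 at 0.47 ± 0.23. Lowest were the adaptor genes Grap2, which had -0.06 on array 1 and -1.11 on array 2 (mean -0.59 ± 0.74), and Lat, at -0.47 ± 0.17. The other probe of Grap2 gave -0.23. Lcp2, the adaptor SLP-76 that binds the tail of CD6, had -0.20 ± 0.13, and Ptpn6, a phosphatase linked to CD5, had 0.51 and -0.41.

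Because Cd163l1 and 5830411N06Rik are known from gamma delta T cells, markers of those cells were read beside them. Of 20 listed genes 10 were matched to a probe, none of them a receptor chain gene, and 8 were tested. Of these 0 were 2-fold apart, and the list median was -0.0031. The highest were the receptor gene Il23r (0.06 ± 0.02) and the factor gene Etv5 (0.06 ± 0.16), and the factor gene Maf had -0.06 ± 0.02. The summed processed signal of the tested members was 29185 in CD8+CD122+ cells against 30009.9 in CD8+CD122- cells on array 1, and 31752 against 32328.5 on array 2 in the same order. Maf gave most of these sums, with 25065 in CD8+CD122+ cells against 26211.5 in CD8+CD122- cells on array 1 and 27413 against 27974 on array 2 in the same order. Sox13 and Il17a were not well above background in either population on either array.

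Probes of the gamma delta receptor chains were searched by the file's own names after the lists were made. All probes found were of the gamma chain and none bore a delta chain name, so the delta chain was not read. Tcrg-C, the constant part of the gamma chain, had a processed signal of 830.4 in CD8+CD122+ cells against 827 in CD8+CD122- cells on array 1, and 911 against 874 on array 2 in the same order. The probe of Trgv7 had log2 ratios of -0.03 and 0.11. Of 2 probes of Trgv2, A_51_P429241 had 0.30 and 0.34 and A_52_P200125 had 0.00 and 0.04 to 2 decimals. On A_51_P429241 the processed signals gave 1.92-fold. The log2 ratios of the gamma constant probe were -0.01 and 0.04, and its processed signals gave 1.02-fold. This probe was dim, with raw intensities of 123 to 163 over local backgrounds of 58 to 70. The offset pulls the ratios of such a probe towards 0. Whether gamma delta T cells have a part in the ratios of Cd163l1 and 5830411N06Rik was not tested.

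Markers of the sorted cell type were read as well. Both populations were sorted as CD8+, so these ratios compare them and do not measure purity. Of 6 tested CD8 T cell markers 5 were below 0 on both arrays, against 24.1% of all genes tested. Of the 6, 0 passed 2-fold, and the list median was -0.52. Cd8a had -0.61 ± 0.43 and Cd8b1 -0.67 ± 0.27, with -0.26 on the other kept probe of Cd8b1. Of the receptor chain genes, Cd3e and Cd3d had -0.01 ± 0.06 and -0.13 ± 0.18. Cd3g and Cd247 were lower, at -0.50 ± 0.15 and -0.54 ± 0.18. The summed processed signal of the tested markers was 517533 in CD8+CD122+ cells against 664226 in CD8+CD122- cells on array 1. On array 2 it was 431498 against 750541 in the same order. Cd8b1 gave most of each sum, with 314427 against 437446 on array 1. At the brightest probe of each gene the means of all 6 were below 0, where those of Cd5 and Cd6 were above 0. The 4 kept probes of Cd247 ran from -0.54 to 0.13, and the other Cd6 probe had 0.03. With the mean of all kept probes the list median was -0.34.

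Markers of other cells were read in the same way. Sums are set only between the populations of 1 list, since they depend on its probes. CD4 T cell markers had summed signals of 829.9 in CD8+CD122+ cells against 708 in CD8+CD122- cells on array 1, and 1247 against 1345 on array 2 in the same order, with Cd4 at -0.02 ± 0.14 and Cd40lg at -0.02 ± 0.04. For B cells, a subset of which bears CD5, the sums on arrays 1 and 2 were 8306 and 7268 in CD8+CD122+ cells against 8910.3 and 8855 in CD8+CD122- cells. Highest and lowest among these 7 genes were Cd22 (0.17 ± 0.19), Ms4a1 (0.08 ± 0.04), Blnk (-0.07 ± 0.06) and Cd79b (-0.48 ± 0.39). Macrophage and dendritic cell markers summed to 10908 and 14409.8 in CD8+CD122+ cells against 9268 and 12911 in CD8+CD122- cells. Lyz2 had 0.55 ± 0.31, Csf1r 0.08 ± 0.0050, Cd68 0.02 ± 0.03 and Adgre1 0.0019 ± 0.03. Of the 2 kept probes of Itgax, in the same list, the brightest gave 0.03 and the other 0.84.

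NK cell markers summed to 12069.8 and 11011 in CD8+CD122+ cells against 9240.1 and 8092 in CD8+CD122- cells. Of 5 tested 4 were above 0 on both arrays, against 29.2% of all genes tested. Gzma, a granzyme gene of NK cells and of effector CD8 T cells, had 0.99 on array 1 and 1.65 on array 2 (mean 1.32 ± 0.47), and the receptor gene Klre1 had 0.91 ± 0.24, with 0.01 on its other probe. From the processed signals or with an offset of 16, 2 of the NK cell markers passed 2-fold on both arrays, against 0 as given here. The adaptor genes Fcer1g and Tyrobp had 0.05 ± 0.01 and 0.05 ± 0.27, and Ncr1, an NK receptor gene, was not well above background in either population. The part that any of these cells has in the ratios of Cd163l1, 5830411N06Rik, Cd5 and Cd6 was not tested.

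**Figure D4:**
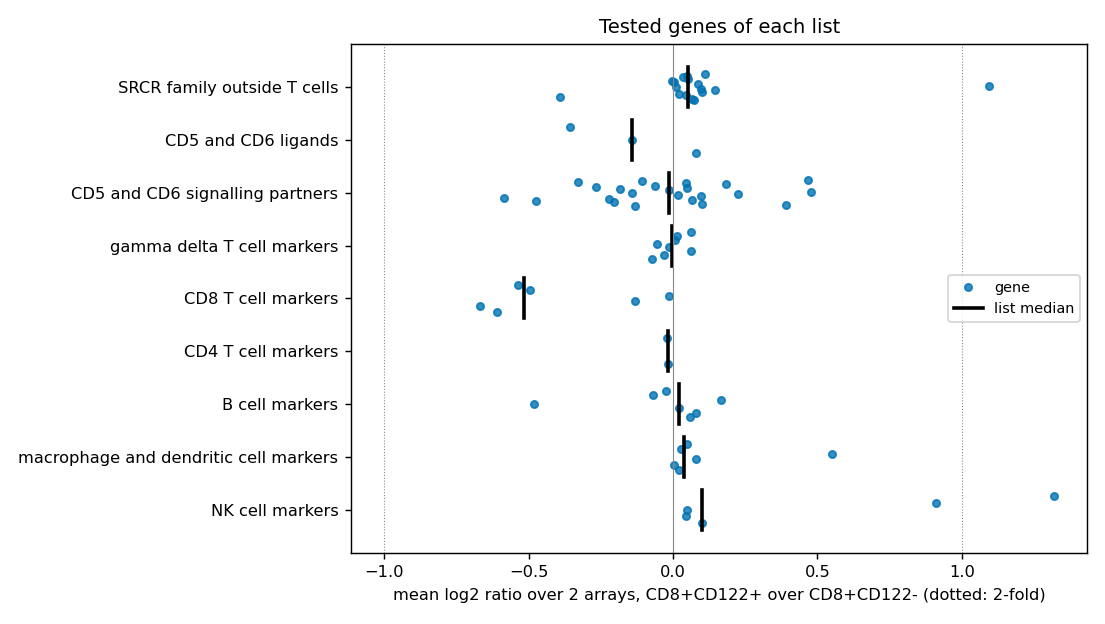
Mean log2 ratio over 2 arrays, CD8+CD122+ over CD8+CD122- (x axis), of each tested gene in the 9 lists, with the list median as a black bar and 2-fold as dotted lines. CD8 T cell markers have the lowest median (-0.52), most other genes lie near 0, and Prss12 (2.14-fold) and Gzma (2.50-fold) lie furthest to the right although neither passed 2-fold on both arrays.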

How the data were processed

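The scanner files of 2 two-colour arrays were used. Per the file headers, Agilent Feature Extraction wrote them (array 1 with A.7.5.1, array 2 with 8.1.1.1). The deposited columns are linear spot intensity and local background, the processed intensity after spatial detrending and dye normalisation, and the log10 of Cy5 over Cy3 with its error. Deposited flags per spot mark outliers, saturation and signal above background. The deposited value table holds the same log10 ratios, with the sign turned on array 1, so that both of its columns are CD8+CD122- over CD8+CD122+, opposite to the direction used here; each column's median is 0, and its centring is not stated.

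Here, mean spot signals were corrected with normexp (offset 50, median local background) and normalised by loess within arrays with control spots at weight 0 (limma 3.58.1, R 4.3.3). Control and outlier spots were left out. Ratios were turned to CD8+CD122+ over CD8+CD122-. A probe was kept (30794 were) if the same population was well above background on both arrays, and a gene took its brightest probe (21960 genes). Of 41174 probes 77.8% were named through RefSeq by accession, symbol or synonym. The gene table was fitted by limma's lmFit and eBayes (1 residual degree of freedom, two-sided, Benjamini-Hochberg adjustment over all genes), called at an adjusted p under 0.05, and beside it stood a rule of size, 2-fold or more with 1 sign on both arrays. The steps were tested on simulated data. Alternatives were another offset, median centring, the processed signals, the value table, no filter or one that both populations must pass, the mean of probes, limma's trend and robust versions, and each array alone. Members and lists were chosen with earlier results of these data known. Named genes were the members, Il2rb, list members passing the rule of size, and the 2 highest and 2 lowest of each list. The nearest 2 protein-coding neighbours on each side and the 5 genes of most like ratios were also named. Cd163, Cd5l, Lcp2, Ptpn6, Sox13, Il17a, Ncr1, Itgax, Cd247 and Cd3g were named outside this rule, after their values were seen. 1 gene that the rule names is not reported here.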

Additional observations from a re-analysis of the deposited data

How the results depend on the processing

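Cd163l1, 5830411N06Rik on A_51_P381139, Cd5 and Cd6 on A_51_P313320 kept a log2 ratio above 0 in all settings run. Cd163l1 was 4.93 with an offset of 16 and 5.52 with the deposited processed signals or value table, and 5830411N06Rik was 3.11 and 3.45; a smaller offset or none shrinks ratios less by construction. The log2 difference of the dim probe A_52_P157535, which stands for no fold, was -0.03 and gave -0.067 with an offset of 16, 0.0075 with median centring and -0.096 with the processed signals or value table, and A_52_P294977 of Cd6 gave -0.0056 with median centring and 0.053 with the processed signals or value table. Leaving out 1 array each gave 4.03 to 4.50 for Cd163l1, 2.49 to 2.76 for 5830411N06Rik on A_51_P381139, 0.36 to 0.70 for Cd5, and 0.13 to 0.72 and 0.01 to 0.04 for the 2 probes of Cd6. With the processed signals 144 genes were 2-fold higher and 64 lower, with an offset of 16 35 were lower and limma called 6, and with the mean of all kept probes 15 were lower; with 1 array, array 2 alone gave 256 higher and 181 lower and array 1 alone 97 and 39, since a gene then need not pass on both. List medians with the processed signals were 0.11 for the wider family, 0.019 for gamma delta, 0.050 for B cell, 0.077 for macrophage and 0.20 for NK cell markers. The wider family gave 0.087 with an offset of 16, and macrophage markers 0.060 with that offset, 0.033 with median centring, 0.027 without the filter on dim probes and 0.049 with the mean of all probes. NK cell markers 2-fold apart on both arrays numbered 2 with the processed signals or an offset of 16 and 1 with median centring, against 0 as reported. With 1 array left out, the medians ran from -0.037 to -0.0083 for gamma delta, 0.015 to 0.053 for B cell, 0.043 to 0.050 for macrophage and 0.13 to 0.23 for NK cell markers, and members 2-fold apart from 0 to 1 in the wider family and among the signalling partners, and 1 among NK cell markers either way. The causes were not tested, except where stated. The ratio within each array already pairs the populations, so no further block was fitted. Signal over background limits the 5830411N06Rik probe A_52_P157535. It also limits the size of the ratios on A_51_P171382 and A_51_P381139, whose CD8+CD122- signals were dim.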
